A study of Mus musculus with 24 samples.

Results

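The genes described are those that store iron in ferritin, release it from ferritin or carry it out of the cell: Fth1, Ftl1, Ncoa4, Slc40a1, Cp and Heph. They were found in the array tables by their symbols, older aliases included, which found all 6 genes among 30774 array symbols and 20 of 45281 probes. Of these, 13 probes from 5 genes stood above background on at least 6 of 24 arrays and were tested among 20215 such probes, and Heph had none. The study asked how mouse fibroblasts respond to degradable metals. BALB/3T3 clone A31 cells, a line derived from mouse embryo, were cultured for 24 h beneath metal powder held in culture inserts, and their total RNA was hybridised to Illumina bead arrays.

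The 4 groups of 6 arrays were control cells with no metal, pure iron at 3.25 mg/ml, pure manganese at 0.5 mg/ml, and Fe-35Mn, an alloy of both metals, at a dose of 5 mg/ml. Were 35 its mass percent of manganese, the alloy dose would hold 3.25 mg/ml iron, matching pure iron, and 1.75 mg/ml manganese, 3.5 times pure manganese. The 6 replicates are called technical in the titles, and nothing names them as separate cultures, so p-values rest on array-to-array spread alone, in 1 clone at 1 time. Arrays had median intensities from 61.6 to 75.3 and between 36.9% and 43.4% of their probes above the background limit. Both lowest values were those of alloy array 4. Replicate arrays correlated at 0.972 or more in each group, but probes varied more among alloy arrays (median SD 0.146 on the log2 scale) than among control arrays (0.0781). A level of RNA on an array is a share of the RNA hybridised, so fewer cells and less RNA per cell cannot be told apart.

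Ferritin is a hollow shell of heavy chains, encoded by Fth1, and light chains, encoded by Ftl1; the heavy chain oxidises ferrous iron and the light chain helps to form the mineral core. NCOA4 is the cargo receptor that takes ferritin to the lysosome, where its iron is released. Ferroportin, encoded by Slc40a1, is the known exporter of iron from vertebrate cells and also moves manganese, and the copper enzymes ceruloplasmin (Cp) and hephaestin (Heph) oxidise the iron it exports. When iron is scarce, iron regulatory proteins bind the start of ferritin and ferroportin mRNAs and block their translation, which arrays of mRNA do not measure, while transcription of both genes can be raised by NRF2 and held down by BACH1.

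The upstream sequence is shown for the ferritin chains, whose probes were higher under the alloy, and for Cp, whose probes were lower under manganese and the alloy, because transcription is the step closest to what arrays measure. Promoter windows from RefSeq (GRCm38.p6) were given for 4 of the 6 genes, and the 250 bases before the most downstream listed start are printed 5′ to 3′ on the gene's strand. Capitals mark CCAAT, the box bound by the factor NF-Y, on either strand, where ATTGG is its reverse complement. The Fth1 window is chr19:9982396-9982645 on the plus strand, the Ftl1 window is chr7:45459887-45460136 on the minus strand, and the Cp window is chr3:19956999-19957248 on the plus strand.
Fth1: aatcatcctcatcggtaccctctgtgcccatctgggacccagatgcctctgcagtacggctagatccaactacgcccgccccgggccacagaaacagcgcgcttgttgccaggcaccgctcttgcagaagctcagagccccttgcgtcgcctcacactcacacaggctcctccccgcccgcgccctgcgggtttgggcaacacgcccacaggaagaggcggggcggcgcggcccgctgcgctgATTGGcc
Ftl1: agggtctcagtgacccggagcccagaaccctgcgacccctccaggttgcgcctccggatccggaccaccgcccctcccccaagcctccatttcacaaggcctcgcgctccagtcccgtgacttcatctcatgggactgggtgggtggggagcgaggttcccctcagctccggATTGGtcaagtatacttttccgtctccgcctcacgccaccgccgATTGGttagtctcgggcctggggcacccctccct
Cp: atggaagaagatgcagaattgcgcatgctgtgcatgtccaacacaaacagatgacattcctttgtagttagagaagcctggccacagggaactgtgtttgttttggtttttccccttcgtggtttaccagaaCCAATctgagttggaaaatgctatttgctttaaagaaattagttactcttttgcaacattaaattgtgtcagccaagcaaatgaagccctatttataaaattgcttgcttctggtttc
The box occurred 1 time in the Fth1 window, 2 times in the Ftl1 window and 1 time in the Cp window, and 33.8% of 32851 windows of the same length held it. The core of the antioxidant response element, TGACNNNGC on either strand, was in none of these 3 windows. It occurred 1 time in the window of the most downstream Ncoa4 start and in 10.2% of all windows. A match in these letters is a description of the window, not a site. Only windows of 250 bases were searched, so the absence of a match does not show that a gene lacks the element.

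Most of the tested probes of this group were called under manganese and under the alloy, and none was called under pure iron. Under iron, 0 of 13 probes passed limma's test at an adjusted p of 0.05 (1 had an unadjusted p under 0.05), beside 0.322% of all tested probes (0.0148% higher and 0.307% lower). Under manganese 8 of 13 passed, 2 higher and 6 lower, where 53.5% of all tested probes passed (24.9% higher and 28.6% lower). Under the alloy 9 of 13 passed, 4 higher and 5 lower, where 55% of all tested probes passed (26.1% higher and 28.9% lower). Of the probes called under both metals, the first Slc40a1 probe entered the test only through its manganese and alloy arrays, and the Cp probes ILMN_3083163 and ILMN_1232202 almost only through their control and iron arrays, so the filter favoured the calls of these 3 and they add no support to the counts. The shares under manganese and the alloy are near those of the whole array, so the count of probes called is not particular to iron storage and export. With 0.322% of all tested probes called under iron, 0 of 13 is not particular to these genes either. It does not show that iron left them unchanged. The plot of differences from control shows where the genes part. Ceruloplasmin lay below control under manganese and the alloy, and 1 ferroportin probe lay above it under both. The 3 ferritin probes lay above control under the alloy. Under manganese only 1 ferritin probe, of Fth1, was called, and that call depended on the scaling. Ncoa4 lay near control.

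**Figure D1:**
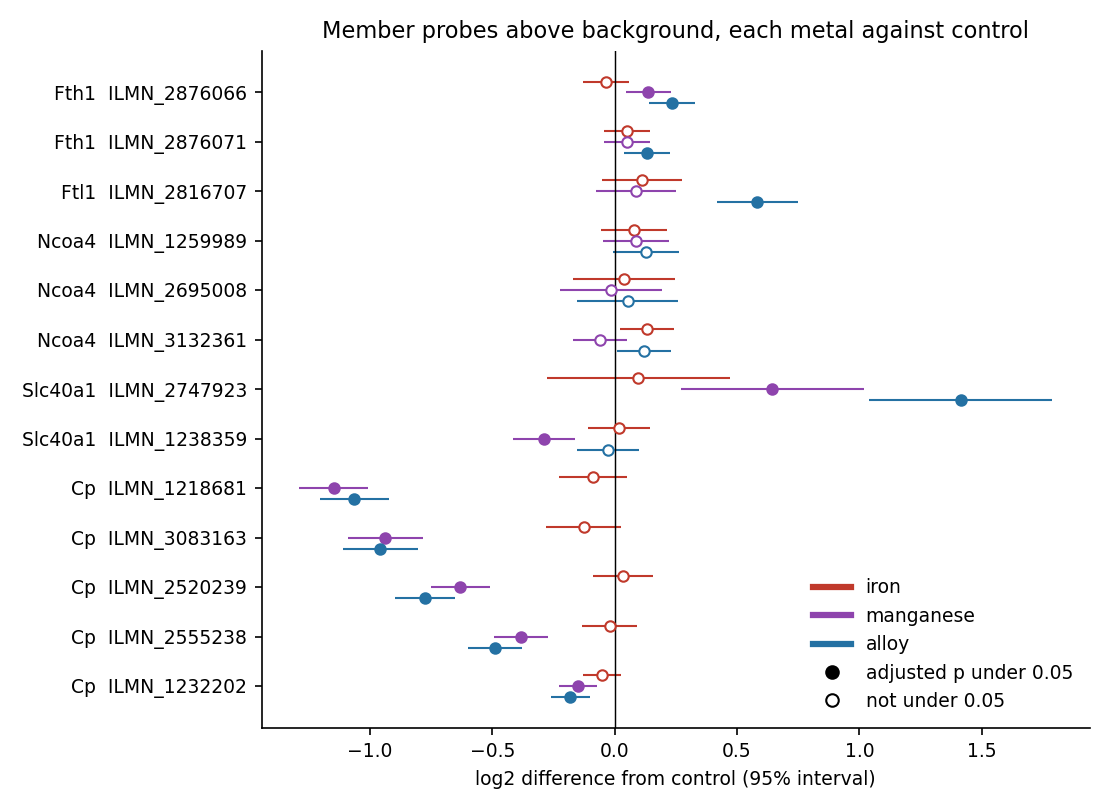
Log2 difference from control (x axis) of the 13 member probes above background (y axis), for iron, manganese and alloy, as mean differences with 95% intervals from 6 arrays a group; filled points passed an adjusted p of 0.05. All 13 iron points are open, the 5 Cp probes lie below 0 under manganese and alloy, and the 2 Slc40a1 probes part under both metals.

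Compared with each other, the alloy and pure iron differed at 8 of 13 probes, 3 higher and 5 lower under the alloy, where 54.9% of all tested probes differed (26.1% higher and 28.8% lower). These 8 held the same 3 probes that the filter favoured. The alloy and pure manganese differed at 4 of 13 probes, all 4 higher under the alloy, where 13.2% of all tested probes differed (5.92% higher and 7.29% lower). These 4 were Ftl1, both Slc40a1 probes and 1 Ncoa4 probe, and in a fit of those 2 groups alone 1 of the 4, Ftl1, still passed. The median log2 difference of the 13 probes was 0.03 under iron, -0.06 under manganese and 0.05 under the alloy, beside medians over all tested probes of 0.0041, -0.0084 and -0.01. All comparisons against control share the same 6 control arrays.

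The ferritin light chain rose under the alloy, and was higher there than under either pure metal. The Ftl1 probe above background (ILMN_2816707) had control intensities from 7826 to 11702 with a median of 9079. Its intensities were 9143 to 11081 under iron (median 10038), 9153 to 11068 under manganese (median 9743) and 8656 to 18353 under the alloy (median 12569). The as-deposited intensities of the alloy and control arrays overlapped, and after normalisation they did not: log2 levels were 12.94 to 13.41 in control and 13.45 to 14.07 in alloy arrays. The alloy level was 1.498-fold above control (log2 difference 0.58, SE 0.08, adjusted p = 7.26e-07 by limma), 1.39-fold above iron (0.47, adjusted p = 1.57e-05) and 1.41-fold above manganese (0.50, adjusted p = 2.21e-04). Under iron the difference was 0.11 (95% interval -0.05 to 0.28, adjusted p = 0.774) and under manganese 0.09 (-0.08 to 0.25, adjusted p = 0.381). With no normalisation between arrays the alloy still differed from control, but its difference from manganese (0.39) had an adjusted p of 0.0616. The second Ftl1 probe (ILMN_1229517) was not above background on any of the 24 arrays and gave no level.

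The ferritin heavy chain was measured by 2 bright probes, which moved by small amounts. The first (ILMN_2876066) had a lowest, median and highest intensity of 39778, 41913 and 45805 in control arrays. The same values were 37653, 39102 and 44864 under iron, 43580.5, 44751 and 51177 under manganese, and 40957, 49685 and 55635 under the alloy. All 4 groups overlapped on this scale, while the normalised log2 levels of manganese (15.45 to 15.49) and alloy arrays (15.41 to 15.77) lay above all control arrays (15.29 to 15.37). This probe was 1.18-fold above control under the alloy (log2 difference 0.23, SE 0.05, adjusted p = 9.06e-05 by limma) and 1.10-fold above it under manganese (0.14, SE 0.05, adjusted p = 0.0122). The manganese call was lost with median scaling (adjusted p = 0.0607), with no normalisation (0.178), with cyclic loess (0.272) and in the authors' normalized probe table (0.0864), all still in the same direction.

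The second Fth1 probe (ILMN_2876071) ran from 30979 to 39447 in control (median 32105), 32249.5 to 37856.5 under iron (34438), 33309 to 41872 under manganese (35103) and 30654 to 41033.5 under the alloy (37327). Its groups overlapped on both scales. Its alloy level was 1.10-fold above control (log2 difference 0.13, SE 0.05, adjusted p = 0.0160 by limma), a call lost in the fit of 2 groups (adjusted p = 0.0524), and its manganese level was not called (0.05, adjusted p = 0.388). Neither probe was called under iron, with differences of -0.03 (95% interval -0.13 to 0.06) and 0.05 (-0.04 to 0.14). Both probes lay near the top of the measured range, where the brightest signal per array was 53161 to 65003.4, and whether they were near saturation was not tested.

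**Figure D2:**
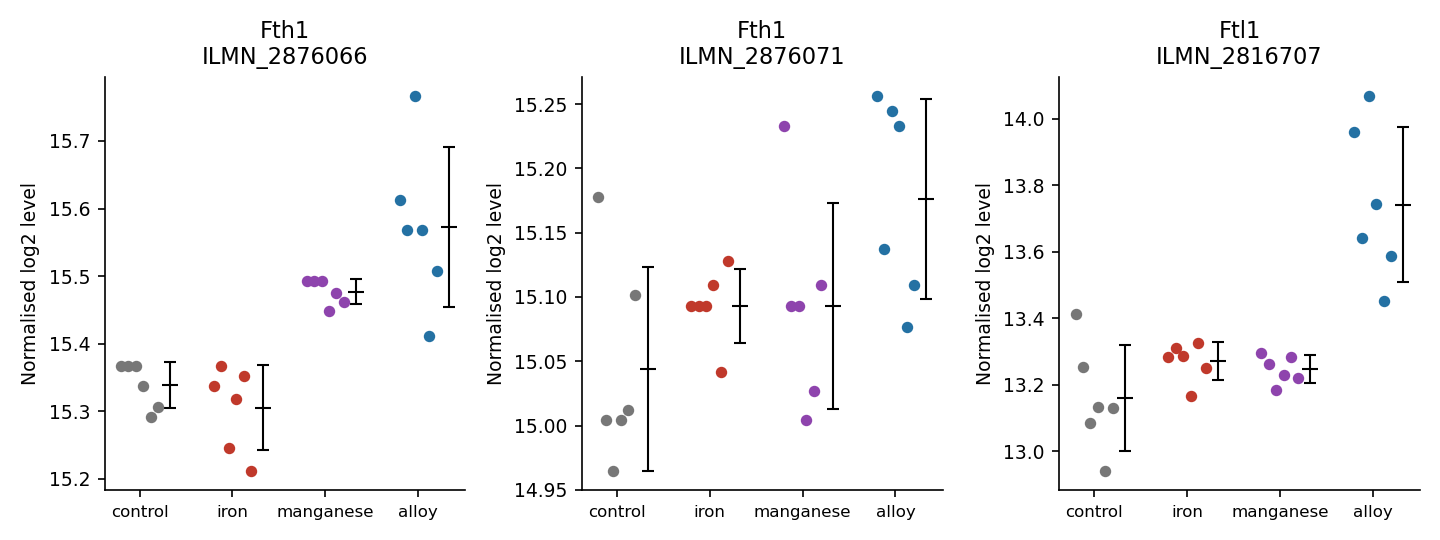
Normalised log2 level (y axis) of the 2 Fth1 probes and the Ftl1 probe above background, by group (x axis); points are arrays, the cross-bar and whiskers the mean and SD of 6 arrays, and each y axis has its own range. The Ftl1 alloy arrays lie above every other array of that probe, and the second Fth1 probe overlaps in all groups.

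The 2 ferroportin probes gave different answers, so each is described alone. The first (ILMN_2747923) is annotated to the RefSeq mRNA of Slc40a1 and is the single probe behind the gene's row in the deposited gene tables. Its intensity was 64.2 to 77.5 in control arrays (median 74.1) and 72.9 to 83.0 in iron arrays (median 77.5), not above background on any of these 12 arrays. It was 97.2 to 129.6 in manganese arrays (median 117.2), above background on all 6. Alloy arrays 1 to 6 gave 266, 174, 406, 141, 110.8 and 138, also all above background. So this probe went from not above background with no metal or iron to above it on every array with manganese or alloy, without overlap. That is a result of this probe, since the other probe annotated to Slc40a1 was above background in all groups.

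Since the control was at background, the rise has only a lower bound, and since the probe passed the filter only through its manganese and alloy arrays, its p-values against control and iron describe a difference that the filter favoured. It was at least 1.415-fold under manganese (log2 difference 0.64, SE 0.18, adjusted p = 0.00396 by limma) and at least 2.41-fold under the alloy (1.41, SE 0.18, adjusted p = 2.63e-07). Against iron the alloy was at least 2.43-fold higher (adjusted p = 7.98e-07). The alloy exceeded manganese by 0.77 on the log2 scale (adjusted p = 0.00632), but the 2 groups overlapped and the adjusted p was 0.0950 in a fit of those groups alone. In the authors' normalized probe table, where differences of dim probes were smaller, those from control were 0.08 under manganese (no longer called, adjusted p = 0.227) and 0.25 under the alloy (adjusted p = 2.34e-04).

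The second ferroportin probe (ILMN_1238359) is annotated to a mouse cDNA clone of Slc40a1, but the array's own symbol for it is SLC39A1. That name is an older alias of Slc40a1 and also the present symbol of a zinc transporter. The assignment to Slc40a1 rests on the platform annotation and was not checked by sequence. The deposited gene tables average 2 probes in the SLC39A1 row, this one and the zinc transporter's own (ILMN_2616877), which was above background on none of the 24 arrays. The second probe itself was above background on all 24. Its intensity was 149 to 195 in control, 153 to 185 under iron, 118.3 to 143 under manganese and 117.1 to 172 under the alloy, with means of 168 (SD 15.2), 167 (SD 11.5), 126.6 (SD 9.44) and 144 (SD 19.7) over 6 arrays each.

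All 6 manganese arrays of this probe lay below all 6 control arrays, and the alloy arrays overlapped both groups. The level was 1.22-fold lower under manganese (log2 difference -0.29, SE 0.06, adjusted p = 2.75e-04 by limma). Under the alloy it was -0.03 (95% interval -0.16 to 0.10, adjusted p = 0.727), and the alloy exceeded manganese by 0.26 (adjusted p = 0.00631, or 0.0735 in a fit of those 2 groups). The alloy result depended on scaling: it was -0.16 with median scaling (adjusted p = 0.0459) and -0.20 with no normalisation (adjusted p = 0.0299). These scalings moved the median of all tested probes to -0.08 and -0.13. Under manganese, then, 1 probe annotated to Slc40a1 rose and the other fell, and the cause was not tested.

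**Figure D3:**
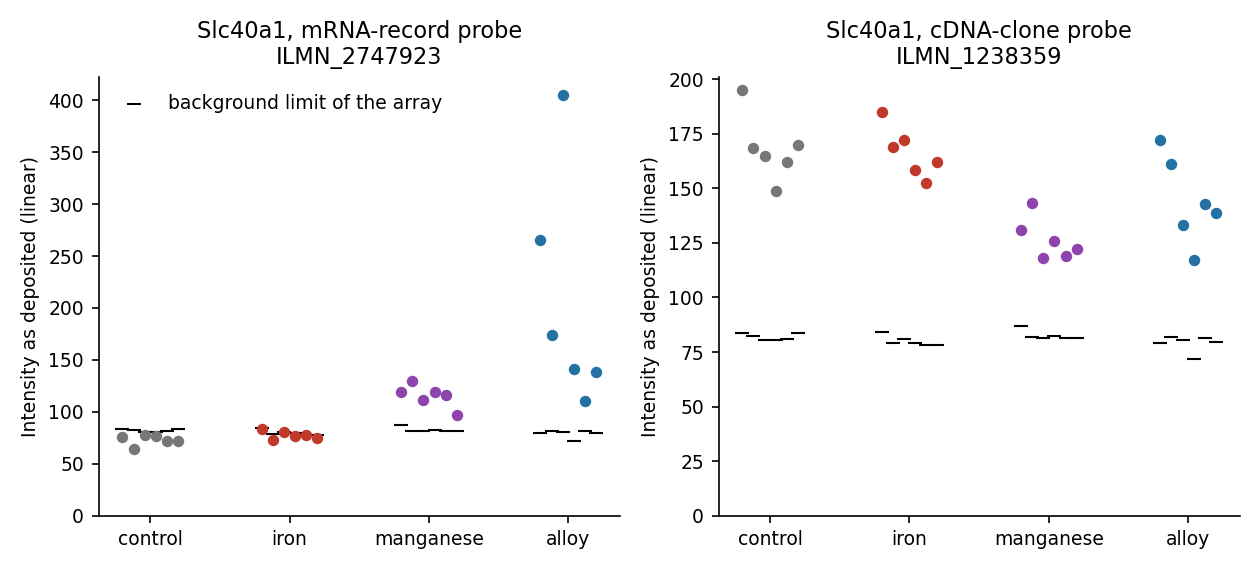
Deposited intensity (y axis, linear, from 0) of each Slc40a1 probe by group (x axis); points are the 6 arrays of a group and dashes the background limit of the same array. The mRNA-record probe lies below the limit on all control and iron arrays and above it on all manganese and alloy arrays, while the cDNA-clone probe is above it everywhere and lower under manganese.

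Ceruloplasmin fell under manganese and under the alloy on each of its 5 probes, with no overlap between either metal and control on any of them. ILMN_3083163 and ILMN_1232202 passed the filter almost only through their control and iron arrays. Their p-values below therefore describe a fall that the filter favoured, and they add no support to that of the other Cp probes. The probe ILMN_1218681 had a lowest, median and highest intensity of 1276, 1535 and 1789 in control and 1203, 1375 and 1663 under iron. It had 551, 660.4 and 736 under manganese and 449.6, 643 and 793 under the alloy, so the highest array with manganese or alloy was well under the lowest control or iron array. It was 2.22-fold lower under manganese (log2 difference -1.15, SE 0.07, adjusted p = 2.14e-13 by limma) and 2.09-fold lower under the alloy (-1.06, adjusted p = 9.68e-13). Its alloy and manganese levels were not told apart (0.08, 95% interval -0.06 to 0.22, adjusted p = 0.448).

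The other Cp probes fell by different amounts. ILMN_3083163 was above background on all 12 control and iron arrays, on 0 of 6 manganese arrays and on 1 of 6 alloy arrays. It went from 130.99 to 149.6 in control to 61.5 to 77.1 under manganese, at least 1.59-fold lower (log2 difference -0.94, adjusted p = 5.98e-11 by limma), and to 51.5 to 83.6 under the alloy (fitted difference -0.96, adjusted p = 4.14e-11). With 5 of the 6 alloy arrays not above background, the fitted alloy value is not a measured size. ILMN_2520239 fell from 360.1 to 464 in control to 228 to 253 under manganese (-0.63, adjusted p = 1.33e-09) and 130.98 to 267 under the alloy (-0.77, adjusted p = 2.93e-11).

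ILMN_2555238, annotated to a cDNA clone, fell by 0.38 under manganese (adjusted p = 1.12e-06 by limma) and by 0.49 under the alloy (adjusted p = 1.94e-08), and was above background on 4 of 6 alloy arrays. ILMN_1232202, which carries the array's symbol CP but is not listed in the annotation, fell by 0.15 (adjusted p = 0.00173) and 0.18 (adjusted p = 2.55e-04). It lay close to background, with 84.0 to 96.1 in control and 63.7 to 77.7 under the alloy, where no array was above it, and its bound under the alloy was at least 1.03-fold. Under iron the 5 probes differed from control by -0.13 to 0.03 and none was called (adjusted p = 0.672 to 0.979).

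**Figure D4:**
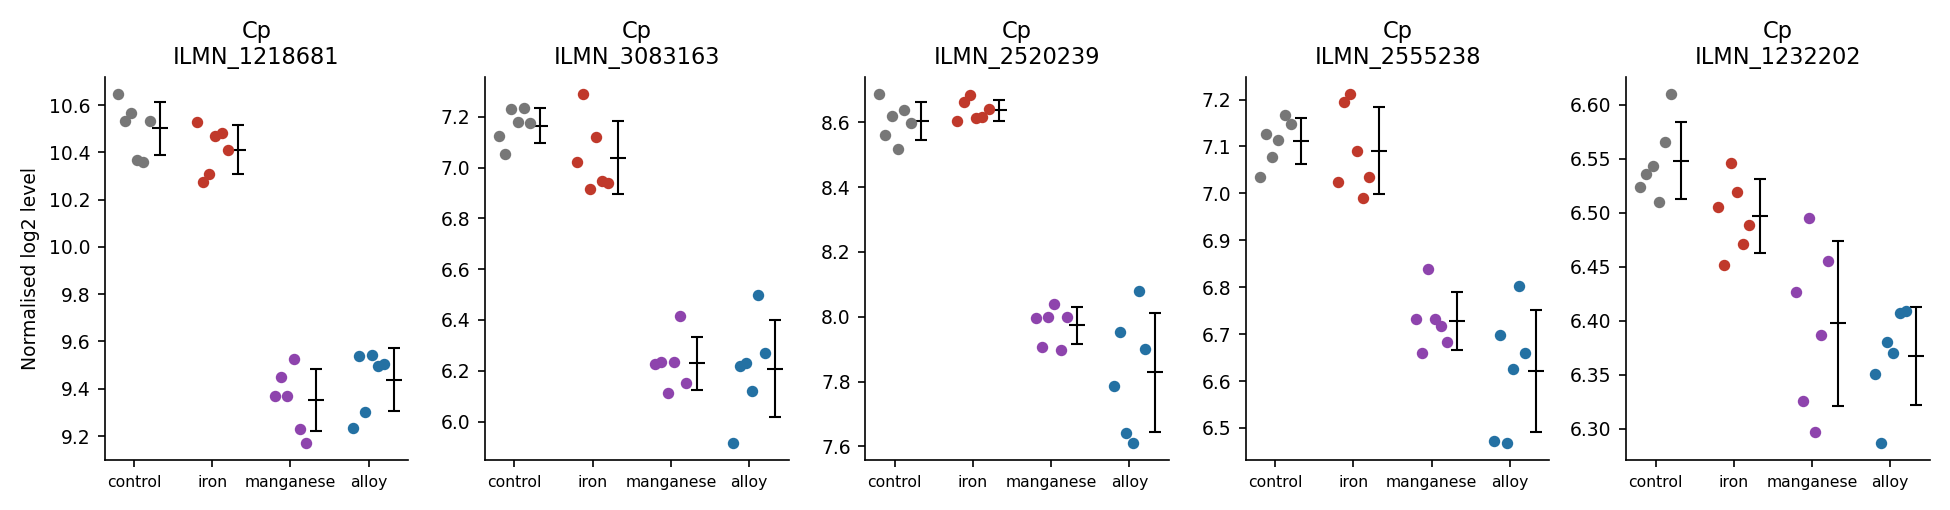
Normalised log2 level (y axis) of the 5 Cp probes by group (x axis); points are arrays, the cross-bar and whiskers the mean and SD of 6 arrays, and each y axis has its own range. On every probe the manganese and alloy arrays lie below all control arrays, and the iron arrays overlap control.

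The direction of the Cp fall held under every scaling and in the authors' normalized probe table, where the sizes were smaller: -0.72 and -0.68 for ILMN_1218681 under manganese and alloy, and -0.12 and -0.12 for ILMN_3083163. Cp fell beside markers of fibroblasts. Of 12 such markers 9 were above background on all arrays and 7 of 9 tested fell under manganese and 7 of 9 under the alloy, among them Pdgfra, a receptor for platelet-derived growth factor (-1.44 under manganese and -1.13 under the alloy), and Col1a2, a chain of type I collagen (-0.67 and -0.79). Col1a1, Lum and Postn were not above background on any array. Of all tested probes, 28.6% fell under manganese and 28.9% under the alloy. The summed intensity of the fibroblast list was 30572 to 36932 in control, 32331 to 37531 under iron, 22136.5 to 23664.5 under manganese and 16539 to 26081 under the alloy. Their part in the fall of Cp was not tested.

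Hephaestin, the membrane-bound relative of ceruloplasmin known from the gut, was not detected. Its 5 probes were above background on at most 2 of 24 arrays, with intensities from 48.6 to 83.9 over all groups, so no comparison was made.

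Ncoa4, the ferritin cargo receptor, did not pass the test against control on any of its 3 probes above background. ILMN_1259989 had 235 to 269 in control (median 239), 236 to 275 under iron (255), 214 to 275 under manganese (239) and 192 to 278 under the alloy (229), and all groups overlapped. Its log2 difference was 0.09 under manganese (95% interval -0.05 to 0.22) and 0.13 under the alloy (-0.01 to 0.26, adjusted p = 0.1004 by limma). ILMN_2695008, annotated to another Ncoa4 transcript, differed by -0.02 (95% interval -0.22 to 0.19) and 0.05 (-0.15 to 0.26).

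ILMN_3132361 differed from control by -0.06 under manganese, by 0.12 under the alloy (95% interval 0.01 to 0.23, adjusted p = 0.0601 by limma) and by 0.13 under iron (0.02 to 0.24, adjusted p = 0.413, with the unadjusted p of 0.0193 noted above). Its alloy level exceeded manganese by 0.18 (adjusted p = 0.0269), a call lost in the fit of 2 groups (0.0770) with median scaling (0.148), and without alloy array 3 (0.0676), manganese array 3 (0.0564) or manganese array 4 (0.0573). The fourth Ncoa4 probe (ILMN_2475086) was above background on no array. These tests do not show that Ncoa4 mRNA stayed the same.

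In normalised levels, 0 of 13 probes under iron separated fully from control, where 2.21% of all tested probes did. Under manganese 8 of 13 separated (all tested probes, 40.6%), under the alloy 8 of 13 (31.2%), between alloy and iron 8 of 13 (31.4%) and between alloy and manganese 2 of 13 (3.1%). The 8 under manganese were the 5 Cp probes, both Slc40a1 probes and the first Fth1 probe, and the 8 under the alloy held Ftl1 in place of the second Slc40a1 probe. In each count of 8, the filter favoured the first Slc40a1 probe and the Cp probes ILMN_3083163 and ILMN_1232202, which add no support to it. The 5 Cp probes measure the same gene, so the counts are not counts of genes.

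The 6 alloy arrays differed among themselves, and 3 of the 13 member probes had the same order over them. In normalised levels the arrays ran in the order 5, 6, 2, 4, 1, 3 from low to high for the Slc40a1 mRNA probe, for Ftl1 and for the first Fth1 probe, with arrays 2 and 4 tied on the last. That order, which was noticed in these probes after their values were seen, was also held by 427 of the 20215 tested probes (2.11%), and its reverse by 439 (2.17%). Slc40a1 ran from 6.87 on array 5 to 8.75 on array 3, Ftl1 from 13.45 to 14.07 and Fth1 from 15.41 to 15.77. Hmox1, which encodes the heme oxygenase that frees iron from heme, had the same order and ran from 11.20 to 13.93, above all control arrays (9.07 to 9.36). Gclm, counted below among the targets of NRF2 and BACH1, also had this order, and Nqo1 of that list ran 5, 6, 2, 1, 4, 3. The second Fth1 probe, also called under the alloy, ran 5, 6, 2, 4, 3, 1, and Tfrc, the transferrin receptor, ran 2, 3, 5, 4, 1, 6. None of the 5 Cp probes had the order of the Slc40a1 mRNA probe or its reverse. In deposited intensities the 3 probes did not share 1 order. The arrays then ran 5, 6, 4, 2, 1, 3 for the Slc40a1 mRNA probe and 4, 5, 6, 2, 1, 3 for Ftl1 and the first Fth1 probe. Alloy array 4, whose place changed with normalisation, had the lowest median intensity of all arrays (61.6).

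**Figure D5:**
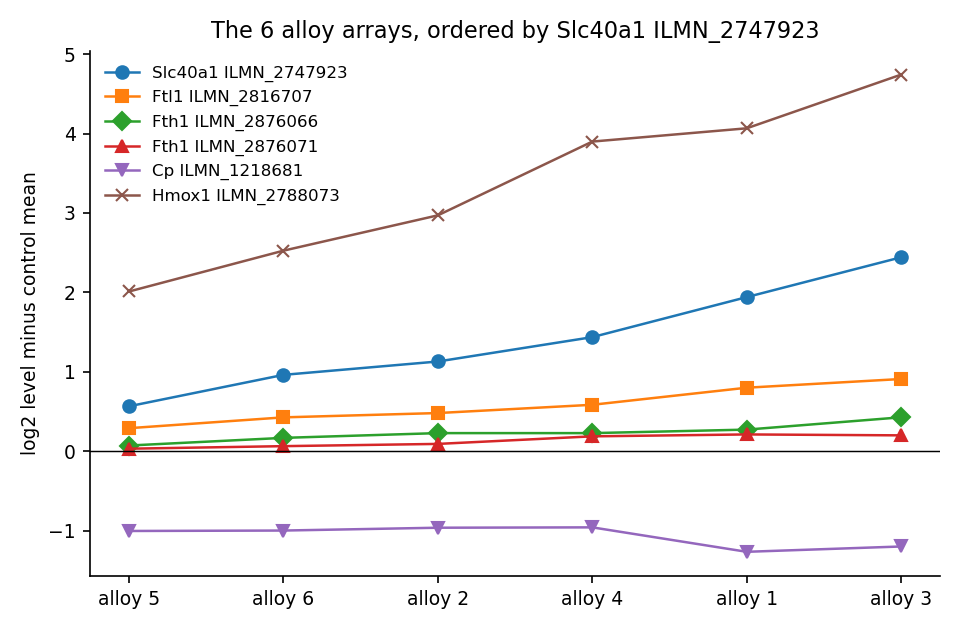
Log2 level minus the control mean (y axis) on each of the 6 alloy arrays (x axis, ordered by the Slc40a1 mRNA probe) for 5 member probes and Hmox1; each point is 1 array and lines join points of a probe only to guide the eye. Ftl1, the first Fth1 probe and Hmox1 follow the Slc40a1 order, and Cp lies near -1 on every array.

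Other genes of iron handling were counted as lists, with 1 probe per gene, that of the highest mean. Beside all list counts below, 24.9% of all tested probes rose and 28.6% fell under manganese. Under the alloy 26.1% rose and 28.9% fell. Of 13 genes for iron uptake 9 were tested: 4 rose and 1 fell under manganese, 5 rose and 1 fell under the alloy, and 1 fell under iron. That one was Tfrc, whose log2 level fell by 0.86 under iron and was higher by 1.70 under manganese and 0.77 under the alloy. Steap1, of the metalloreductase family, rose by 1.15 and 1.37 under the same metals, and Steap2, its relative, fell by 0.45 and 0.70. Slc11a2, counted as higher under both, was 0.41 and 0.75 on its brightest probe. The lowest values over its probes were -0.52 and -0.53, so its probes disagreed in sign. The median of this list was 0.23 under manganese and 0.29 under the alloy.

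Of 11 tested regulators of iron metabolism, 2 rose and 4 fell under manganese (list median -0.0035), while 5 rose and 2 fell under the alloy (0.06). Aco1, which encodes an iron regulatory protein, fell by 0.42 under manganese and by 0.23 under the alloy. Ireb2, which encodes the other, was -0.26 and -0.18 on its brighter probe but 0.13 and 0.15 on a second probe, so its probes disagreed in sign. Nfe2l2, the gene of NRF2, rose by 0.46 under the alloy, and Mtf1, a metal-sensing transcription factor, rose by 0.42 and 0.26, with a second probe at -0.01 under manganese.

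Of 11 tested targets of NRF2 and BACH1, 10 rose under manganese and all 11 under the alloy, with list medians of 0.69 and 1.09, and none was called under iron. The ferritin genes are also known targets of this pair. Under the alloy Ftl1 stood at 0.58, the first Fth1 probe at 0.23 and the second at 0.13. Under manganese the same probes stood at 0.09, 0.14 and 0.05, and only the first Fth1 probe was called. All lay below the list's median for the same metal, a difference that was not tested. Nqo1, a quinone reductase, rose by 0.66 and 1.09, and Mafg, a small Maf partner of both factors, rose by 1.19 and 1.40. Slc7a11, the cystine transporter, rose by 3.20 and 3.37 on its brightest probe, while another of its probes gave -0.03 and 0.01.

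Of 17 tested genes for ferritin turnover and autophagy, 4 rose and 7 fell under manganese (list median -0.04), and 6 rose and 4 fell under the alloy (0.08). Sqstm1, an autophagy receptor and also a known NRF2 target, rose by 1.71 and 1.84, and Atg16l1, which helps to place LC3 on membranes, rose by 0.87 and 0.85. Map1lc3a, an LC3 gene, fell by 0.45 and 0.28. Of 6 tested genes for other ferroxidase or copper functions, 1 rose and 3 fell under manganese, and 1 rose and 2 fell under the alloy. Atox1, which carries copper toward the secretory pathway where ceruloplasmin is loaded, fell by 0.41 under manganese and was -0.09 under the alloy (not called), and App, a copper-binding membrane protein, fell by 0.29 and 0.24. The other ferritin genes Ftl2 and Ftmt and the hephaestin relative Hephl1 were not above background on enough arrays to be tested.

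Markers of cells known for these genes were low. Of 9 macrophage markers with a probe 3 were tested, of 6 hepatocyte markers 1, of 5 erythroid markers 2 and of 5 enterocyte markers 0. The macrophage marker Cd68 rose by 0.28 under manganese and 0.30 under the alloy (adjusted p = 0.00143 and 5.97e-04 by limma), Aif1 rose by 0.16 under manganese (adjusted p = 0.0112), and Lyz2 fell by 0.44 and 0.57 (adjusted p = 1.67e-07 and 1.88e-09). The erythroid marker Hba-a1 rose by 0.38 and 0.44 (adjusted p = 7.13e-05 and 1.01e-05). Cd68 and Hba-a1 were above background on no control or iron array, and Lyz2 on no manganese or alloy array. The filter therefore favoured the calls of Cd68, Hba-a1 and Lyz2, and their fitted differences are not measured sizes. None of the markers named here was called under iron, and their part in the changes of the iron genes was not tested. The lists' summed intensities overlapped between groups, with 628 to 696 in control and 552 to 655 under the alloy for macrophage markers, and 359.6 to 380.4 and 348.6 to 380.5 for hepatocyte markers.

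By correlation over the 24 arrays, the genes most like each member were as follows, given as a description over arrays that share their 4 groups. Cp (ILMN_1218681) was most like Gpc3, a cell-surface proteoglycan, with r = 0.981, followed by Meis1 (0.979) and Pygb (0.978). Fth1 (ILMN_2876066) was most like Vegfc (0.960), a lymphatic growth factor, Dtna (0.957) and Cwf19l1 (0.953). Ftl1 was most like Mfsd5 (0.920), Phtf2 (0.916) and Syn1 (0.914). Ncoa4 (ILMN_1259989) had weaker neighbours, of which Kbtbd2 was the nearest (0.865). The second Slc40a1 probe, chosen by its higher mean, was most like Cyb5a (0.850), a cytochrome, and then Atox1 (0.835), which also fell under manganese and not under the alloy.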

How the data were processed

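RNA of 24 arrays in 4 groups of 6 was labelled as biotin cRNA, per the labels' protocols. Linear intensity values for 45281 probes were deposited, not normalized per the file headers. The authors' normalized tables and the series matrix, also deposited, hold log2 values; lumi and RMA are named, without version or role, per the submitters' processing notes. The deposited gene tables were checked to be means of probe values (30774 of 30774 symbols within 0.01%). Probes of both tables were paired within a symbol by their ranks over arrays. From the intensities, normexp (offset 50) and quantile normalisation gave log2 levels (limma 3.58.1, R 4.3.3; for matching and plots Python 3.11.15 with Matplotlib 3.10.9, SciPy 1.17.1, pandas 2.3.3 and NumPy 2.4.6). An array's background limit was the mode of its log2 intensities plus the normal quantile leaving 1% above, scaled by the spread below the mode, since the files hold no detection p-values. Probes above it on at least 6 arrays entered 1 limma model (lmFit, eBayes, 1 mean per group, two-sided), with Benjamini-Hochberg adjustment over 20215 probes at 0.05. Bounds used the lowest signal above background per array. The steps were tested on simulated data. Of the probes, 34885 had 1 annotated gene, 18 several and 10378 none listed, which kept the array's symbol. Members, lists and tests were chosen with earlier results of these data known. All member probes are described. Of each list up to 3 genes with the smallest adjusted p per metal could be named. Hmox1, Gclm, Slc11a2 and the markers were added. Promoters were read from RefSeq. Alternatives were other scalings, background corrections, filters, the authors' tables, fits of 2 groups, array weights, the replicate number as a block and leaving out each array.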

Additional observations from a re-analysis of the deposited data

Results flagged for a closer look

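On the Ncoa4 probe ILMN_3132361, alloy replicate 3 stood apart from the other 5 alloy arrays at a log2 level of 7.05, against 6.78 to 6.86 for the others. Of 52 groups of 6 arrays examined, 1 stood apart by this gap test, which chance gives in about 1 group of 20. Without that array the probe's alloy level exceeded manganese by 0.14 (adjusted p = 0.0676 by limma) in place of 0.18.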

How the results depend on the processing

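Of 29 member differences past the threshold, 22 stayed past it in the same direction under all alternatives run. Of 693 alternative values for the 29, 672 stayed past it, 21 did not and none changed sign. These counts include calls of the first Slc40a1 probe and of the Cp probes ILMN_3083163 and ILMN_1232202 against control and between alloy and iron. The filter favoured those calls, so they add no support to the counts. Of the 21, 7 were Ncoa4 ILMN_3132361 between alloy and manganese (highest adjusted p 0.345), 5 the first Fth1 probe under manganese (0.272), 3 the second Fth1 probe under the alloy (0.116), 2 Slc40a1 ILMN_2747923 under manganese (0.227), 2 Slc40a1 ILMN_1238359 between alloy and manganese (0.152), and 1 each Slc40a1 ILMN_2747923 (0.0950) and Ftl1 (0.0616) between alloy and manganese. The count of probes called under iron was 65 and became 10 with median scaling, 3 with no normalisation, 100 in the authors' normalized probe table, 516 in the fit of 2 groups, 935 with array weights and 16 to 87 without 1 array; no member was called under iron in any of these. Between alloy and manganese 2670 probes became 1364 with median scaling, 1081 with no normalisation, 688 in the fit of 2 groups and 1905 to 3914 without 1 array, and the 4 member probes became 1 with no normalisation, 1 in the fit of 2 groups and 3 to 6 without 1 array. The share of called probes that were higher under the alloy was 47.4%, but 28.9% with median scaling and 22% with no normalisation; under manganese it was 46.6%, 37% and 34.1%, between alloy and iron 47.6%, 29% and 24.5%, and between alloy and manganese 44.8%, 15.9% and 7.31%. Without 1 array, 6 uncalled member differences passed: Ncoa4 ILMN_3132361 under the alloy without control array 1, control array 6 or alloy array 4 (adjusted p = 0.0309, 0.0490 and 0.0391 by limma), Ncoa4 ILMN_1259989 under the alloy without alloy array 1 (0.0427), and, between alloy and manganese without alloy array 5, Cp ILMN_2520239 (0.0125) and Fth1 ILMN_2876066 (0.0408). The causes were not tested. Signs turned only where neither value passed the test. With median scaling Ncoa4 ILMN_1259989 was -0.0259 against control, -0.104 against iron and -0.0282 against manganese under the alloy, ILMN_2695008 -0.0442 and -0.0758 against control and iron, and Cp ILMN_1218681 -0.0217 against manganese. With no normalisation the same 6 were -0.0714, -0.131, -0.0599, -0.0896, -0.102 and -0.0534, ILMN_2695008 was -0.0039 against manganese, Slc40a1 ILMN_1238359 -0.0098 under iron and Ncoa4 ILMN_1259989 -0.0114 under manganese. Cyclic loess gave 0.0067 for ILMN_2695008 under manganese. Between alloy and manganese Cp ILMN_3083163 was 0.0166 with cyclic loess, 6e-04 in the authors' normalized probe table and 0.0179 with array weights, which put Ncoa4 ILMN_1259989 at -0.0269 against manganese. Without 1 array, Ncoa4 ILMN_2695008 ran from -0.0042 to 0.0843 under iron, -0.0662 to 0.0816 under manganese, -0.0315 to 0.0554 between alloy and iron and -0.0288 to 0.119 between alloy and manganese. ILMN_3132361 ran from -0.0506 to 0.0114 between alloy and iron, ILMN_1259989 from -0.0002 to 0.075 and Cp ILMN_3083163 from -0.0784 to 0.0381 between alloy and manganese, and Slc40a1 ILMN_1238359 from -0.0039 to 0.0441 under iron and -0.0868 to 0.0033 under the alloy. Correlations of deviations between arrays of the same replicate number ran from -0.19 to 0.36 over the 5 comparisons. Between iron and control all 6 were positive (0.02 to 0.36), and whether replicate numbers pair the arrays was not tested. With the replicate block 0, 8, 10, 8 and 4 member probes were called in these comparisons. Of all probes 91, 10904, 11268, 11228 and 2889 were called. The tenth member probe under the alloy was Ncoa4 ILMN_1259989 (0.13, adjusted p = 0.0350 by limma). Signal near background limits Heph, 1 Ftl1 probe, 1 Slc40a1 probe and 2 Cp probes.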
